A study of Mus musculus with 8 samples.

Results

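The regions described here are stretches of the mouse genome that were called as open chromatin in both samples of the lateral ganglionic eminence (LGE) and both samples of the caudal ganglionic eminence (CGE) of the embryonic forebrain, and in neither sample of the medial ganglionic eminence (MGE). They were found by joining the peaks of all 8 samples on chromosomes 1 to 19 into 286181 merged regions, of which 4775, or 1.67%, had this pattern and are called member regions below. Of these 4775, 2293 also had a peak in both samples of the cortex (CTX), 1168 in 1 CTX sample and 1314 in none. The members were therefore chosen by the presence and absence of peaks, and those presences are a description and not a result.

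Single nuclei were taken from CTX, MGE, CGE and LGE of wild-type embryos, with 2 samples a region, and assayed by droplet-based single-nucleus ATAC-seq, in which a transposase cuts accessible DNA and the cut fragments are counted. All samples were of embryonic day E12.5 except CTX replicate 2, which was of E14.5, so that the spread between the CTX samples holds any difference of age. The sources used here do not say whether a sample came from 1 embryo or from a pool, and p-values measure the spread between these samples only. The 8 samples held 3465 to 6845 nuclei and 75850583 to 136418494 counts on these chromosomes, and between 0.67% and 1.54% of the counts of the CTX, LGE and CGE samples lay in member regions. Pairs of samples shared at most 56 barcodes. Over gene bodies with the upstream 2 kb (2000 bp), Nkx2-1 held 546 and 369 counts per 1000000 (CPM) in the MGE samples against 33 to 39.6 CPM in LGE and CGE, and Dlx1 held 310 to 561 CPM in the 6 eminence samples against 51.1 and 52.3 CPM in CTX. The genes used as LGE markers (Ebf1, Isl1 and Foxp1) were not highest in LGE. Ebf1 held 303 and 289 CPM in LGE, 329 and 327 CPM in CGE, 199 and 285 CPM in MGE and 303 and 253 CPM in CTX. Nr2f2, a marker of CGE, held 264 and 505 CPM in CGE, 249 and 227 CPM in MGE and 85.9 and 132 CPM in LGE.

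The ganglionic eminences are the ventral swellings of the embryonic telencephalon. Their ventricular zone progenitors divide next to the ventricle and give rise to GABAergic neurons, with striatal projection neurons coming mainly from LGE and cortical interneurons mainly from MGE and CGE, while the cortex gives rise to glutamatergic neurons. Distal accessible regions often act as enhancers, and the set of such regions open in a cell differs between cell types far more than the set of open promoters does.

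Regions shared by LGE and CGE but not MGE were more frequent than the mirror pattern of LGE and MGE without CGE, which 119 regions showed, or of CGE and MGE without LGE, which 2811 showed. A peak in both MGE samples and in no LGE or CGE sample was found in 2878 regions, and 74752 regions had a peak in all 6 eminence samples. These counts move with how many peaks were called in each sample, and they carry no test. The peak lists of MGE replicate 1 and LGE replicate 1 held 103470 and 101677 peaks on these chromosomes, and those of the other samples 139401 to 179051.

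**Figure D1:**
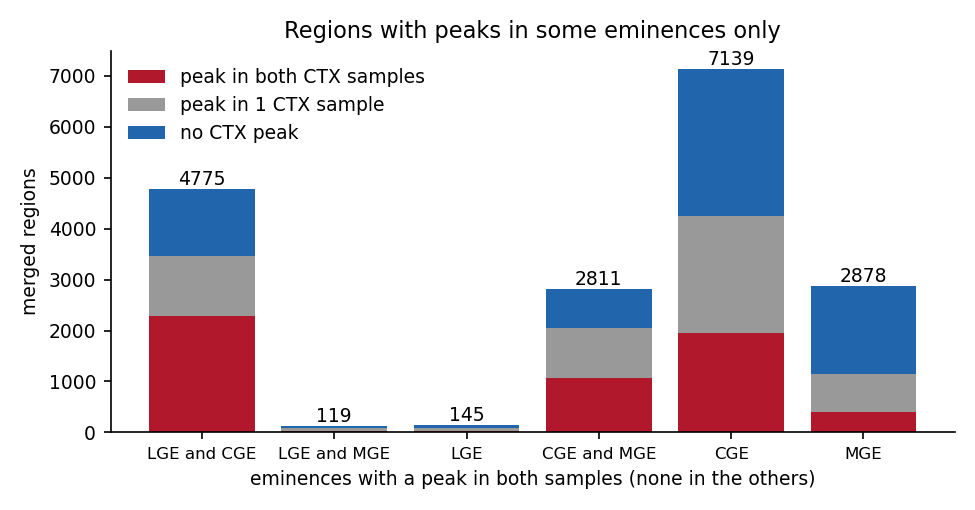
Number of merged regions with a peak in both samples of the named eminences and in neither sample of the others (vertical axis, regions), with bars divided by the number of CTX samples that also had a peak. The pattern of LGE and CGE without MGE holds 4775 regions, against 119 for LGE and MGE without CGE.

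The rule was sharp in some places. Just outside it lay 9803 regions with a peak in all 4 LGE and CGE samples and in 1 MGE sample, and that sample was MGE replicate 2 in 9567 of them. The median level of these regions was 0.832 CPM in MGE replicate 2, where the CPM of regions are relative to a sample's counts in the regions with a peak in all 8 samples, against 1.84 CPM in CGE replicate 1 and 1.46 CPM in LGE replicate 2. Inside it, 718 members had under 100 bp of peak in at least 1 LGE or CGE sample, and their median level over the 4 samples was 0.795 CPM, against 1.56 CPM in the other 4057. A total of 70 members had a listed peak but 0 counts in at least 1 of the 4 samples, and 378 had under 10 counts there. Without MGE replicate 2 the rule would have taken 14342 regions, and without LGE replicate 1 it would have taken 9464. MGE samples hold no counts at the members because counts were deposited for each sample's own peaks only, so MGE was not measured there and is not taken as 0.

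The members were mostly distal. Of the 4775, 2438 (51.1%) were intergenic, 1973 (41.3%) intronic, 308 (6.45%) overlapped an exon, of which 259 overlapped coding sequence, and 56 (1.17%) lay within 1000 bp of the start site of a protein-coding gene. Among the 66854 regions with a peak in all 8 samples, 22.2% lay at such promoters, and among all merged regions 6.61%. In the 9803 regions just outside the rule, with a peak in 1 MGE sample, the share was 1.8%. In regions with a peak in all 6 eminence samples and no CTX peak it was 1.53%. A low share at promoters was thus also found in regions with MGE peaks and is not particular to the members. The median distance from the centre of a member to the nearest start site was 66805 bp, against 21246 bp for the regions of all 8 samples. Among regions with a peak in both MGE samples and none in LGE or CGE it was 35568 bp, and among all merged regions 41673 bp. It was 63266 bp in the regions just outside the rule. In regions of all 6 eminence samples without a CTX peak it was 57813 bp. Members without a CTX peak lay farthest from start sites, with a median of 81417 bp, and members with a peak in both CTX samples lay at a median of 60926 bp. The nearest MGE peak was at a median of 4726 bp, within 1000 bp of 466 members and over 10000 bp from 1290. Members were a median of 754 bp wide (166 to 4040 bp), and the width was 1010 bp with peaks in both CTX samples and 578 bp with none. Their central 300 bp held a median of 44.7% G and C, against 49.7% in regions of all 8 samples and 46.7% in all merged regions. The median was also 44.7% in the regions just outside the rule. In regions of all 6 eminence samples without a CTX peak it was 45.2%.

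The regions shown next were chosen because the results turn on the contrast between members without and with CTX peaks. Each is the most accessible member nearest to its gene of the lists described below, except that of Bach2. The Bach2 member is among the 4 most accessible members without a CTX peak. Other members named for the lists, some of them more accessible, are not shown. Each line gives the central 300 bp on the plus strand of GRCm38 (mm10) after the name of the gene with the nearest start site. Capitals mark 4 short letter strings on either strand, which may overlap (TGACAG and CAGATG share letters), namely TGACAG (the core of the sites bound by MEIS factors), TAATTA (the core bound by many homeodomain factors), CAGATG (an E-box bound by NEUROD and NEUROG factors) and GGTGTGA (a T-box core, as bound by TBR1 and EOMES). The first 4 members had no CTX peak, the Isl1 member had 1, and the last 3 had a peak in both CTX samples.
Bach2 region, chr4:32275515-32275814: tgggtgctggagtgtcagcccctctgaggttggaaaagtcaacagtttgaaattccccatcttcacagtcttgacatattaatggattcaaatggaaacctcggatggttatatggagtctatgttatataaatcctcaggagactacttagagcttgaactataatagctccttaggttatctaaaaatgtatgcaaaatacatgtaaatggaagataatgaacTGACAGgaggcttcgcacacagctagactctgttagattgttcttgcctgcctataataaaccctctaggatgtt
Robo2 region, chr16:73969541-73969840: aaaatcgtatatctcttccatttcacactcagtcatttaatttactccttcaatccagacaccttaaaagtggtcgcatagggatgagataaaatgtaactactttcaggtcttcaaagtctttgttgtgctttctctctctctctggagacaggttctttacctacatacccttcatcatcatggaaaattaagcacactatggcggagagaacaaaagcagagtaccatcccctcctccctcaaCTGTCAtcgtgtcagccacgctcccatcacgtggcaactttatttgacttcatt
Rarb region, chr14:17226042-17226341: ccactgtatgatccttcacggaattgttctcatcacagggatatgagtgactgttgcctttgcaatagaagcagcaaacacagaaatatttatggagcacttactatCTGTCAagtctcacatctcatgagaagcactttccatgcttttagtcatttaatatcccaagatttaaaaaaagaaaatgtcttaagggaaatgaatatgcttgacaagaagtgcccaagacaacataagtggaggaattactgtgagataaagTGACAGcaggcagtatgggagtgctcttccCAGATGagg
Erbb4 region, chr1:69202824-69203123: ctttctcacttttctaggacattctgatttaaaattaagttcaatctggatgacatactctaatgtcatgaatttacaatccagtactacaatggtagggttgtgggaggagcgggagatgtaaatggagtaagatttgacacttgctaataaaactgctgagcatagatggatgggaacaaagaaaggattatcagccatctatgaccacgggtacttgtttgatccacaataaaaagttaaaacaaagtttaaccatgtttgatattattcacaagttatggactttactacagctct
Isl1 region, chr13:115928820-115929119: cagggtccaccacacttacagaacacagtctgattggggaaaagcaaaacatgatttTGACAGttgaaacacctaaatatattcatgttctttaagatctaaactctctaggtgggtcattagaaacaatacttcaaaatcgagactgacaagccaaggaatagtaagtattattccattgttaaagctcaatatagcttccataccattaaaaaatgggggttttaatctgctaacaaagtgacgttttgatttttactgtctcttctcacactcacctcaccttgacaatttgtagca
Sema3c region, chr5:17551702-17552001: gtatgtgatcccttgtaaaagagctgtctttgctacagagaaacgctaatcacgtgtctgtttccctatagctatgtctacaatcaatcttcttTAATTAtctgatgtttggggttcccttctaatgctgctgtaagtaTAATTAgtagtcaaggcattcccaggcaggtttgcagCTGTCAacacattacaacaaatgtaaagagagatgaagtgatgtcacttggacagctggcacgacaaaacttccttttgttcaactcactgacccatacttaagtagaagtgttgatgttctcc
Epha5 region, chr5:84853845-84854144: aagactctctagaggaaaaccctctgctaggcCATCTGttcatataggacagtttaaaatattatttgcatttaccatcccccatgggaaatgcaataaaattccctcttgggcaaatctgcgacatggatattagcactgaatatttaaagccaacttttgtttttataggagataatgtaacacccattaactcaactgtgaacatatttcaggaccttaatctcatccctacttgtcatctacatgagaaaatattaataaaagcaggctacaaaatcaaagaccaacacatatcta
Nrp2 region, chr1:62881092-62881391: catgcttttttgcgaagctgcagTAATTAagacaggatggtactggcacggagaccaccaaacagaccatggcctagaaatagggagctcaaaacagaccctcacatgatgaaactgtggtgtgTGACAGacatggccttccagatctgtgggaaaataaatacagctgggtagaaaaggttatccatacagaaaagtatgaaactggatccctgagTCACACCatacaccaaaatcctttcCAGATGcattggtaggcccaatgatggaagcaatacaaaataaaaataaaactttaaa
The TGACAG letters occur 1 time in the window of the Bach2, Robo2 and Isl1 members and 2 times in that of the Rarb member, while the window of the Erbb4 member holds none of the 4 strings. Of the members shown with peaks in both CTX samples, the Epha5 window holds CAGATG and no TGACAG, the Sema3c window TAATTA 2 times and TGACAG 1 time, and the Nrp2 window each of the 4 strings 1 time. The windows of the Unc5d, Eomes and Nrg1 members, which also had peaks in both CTX samples and are not shown, hold none of the 4 strings.

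The MEIS letters differed in share between members with and without CTX peaks. They stood in the central 300 bp of 724 of the 1314 members without a CTX peak (55.1%), in 39.6% of members with 1 CTX peak and in 674 of the 2293 members with both (29.4%). Among all merged regions the share was 26.3%, among regions of all 8 samples 22.2%, among regions with a peak in both MGE samples and none in LGE or CGE 22.9%, and among regions with a peak in all 6 eminence samples and no CTX peak 36%. Among merged regions whose GC content lay between the members' quartiles of 41% and 48.7% it was 27.3%. In the regions just outside the rule, with a peak in 1 MGE sample, it was 32.8%, against 39% of all members. Members without a CTX peak were also narrower. Among members narrower than the median of 754 bp the share was 58.2% without a CTX peak and 29.1% with both, and among wider members it was 40% and 29.5%. The letters were densest at the centre, where 17.7% of the members without a CTX peak held them in each of the 2 central bins of 50 bp, against 3.96% in the bin farthest upstream. These shares are descriptions, since a match to 6 letters is not a bound site.

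**Figure D2:**
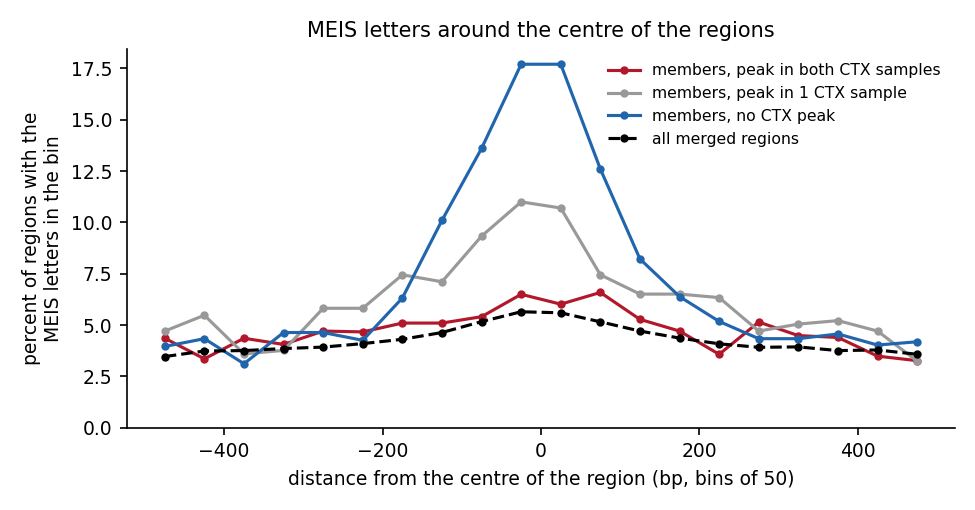
Percent of regions with TGACAG on either strand in each bin of 50 bp (vertical axis) against distance from the centre of the region in bp (horizontal axis), for members by CTX peaks and for all merged regions (dashed). Members without a CTX peak rise to 17.7% at the centre, while all merged regions stay at 5.65% or below.

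Other letters were searched in the same way. The POU letters ATGCAAAT were in 8.98% of members without a CTX peak, 3.88% of those with both, 7.01% of regions with a peak in all 6 eminence samples and no CTX peak, and 3.15% of all merged regions. TAATTA was in 17% and 21.5%, against 13.9% of all merged regions. Over all members the shares of TAATTA and the POU letters were 19.2% and 6.05%. In the regions just outside the rule, with a peak in 1 MGE sample, they were 18.9% and 5.06%. The NEUROD and NEUROG E-box CAGATG was in 24.6% of members without a CTX peak and 33.5% of those with both, against 27.9% of all merged regions, and the T-box letters were in 4.03% and 7.24%, against 4.62%. CTCF letters (AGGGGGC) and the GC box (GGGCGG) were in 3.31% and 4.06% of members, against 9.04% and 17.8% of regions of all 8 samples. Among all merged regions the shares were 5.18% and 7.98%, and among those in the members' GC range 3.72% and 3.48%. Other strings searched were SOX (ACAATGG, 6.18% of members and 4.95% of all merged regions), NR2F (AGGTCA, 11.4% and 14.4%), EBF (CCCNNGGGA, 6.53% and 4.95%), FOX (TGTTTAC, 4.61% and 4.8%), TCF and LEF (CTTTGAT, 5.78% and 5.33%) and AP-1 (TGANTCA, 10.5% and 9.83%).

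To ask which nuclei held the open chromatin, the 19889 LGE and CGE nuclei were clustered on the regions of all 8 samples, none of which is a member, and clusters were named from marker genes. Clusters called progenitor-like, GABAergic-like and glutamatergic-like held 24.9% to 49.1%, 30.3% to 34.1% and 5.6% to 13% of the nuclei of a sample. The 2 largest progenitor-like clusters split by replicate number. One held 2112 and 816 nuclei of LGE and CGE replicates 2, against 185 and 35 of replicates 1. The other held 1667 and 659 nuclei of LGE and CGE replicates 1, against 50 and 28 of replicates 2. Between 13.8% and 28.9% stayed unnamed, including a cluster of 1489 nuclei with a median of 3.04 times the counts of their samples. Another unnamed cluster, of 1535 nuclei, had 2 glutamatergic markers raised, Tbr1 and Slc17a6. The members were not used to make the classes, but both come from the same nuclei. One GABAergic-like cluster of 561 nuclei had Sst and Lhx6, genes of MGE-derived interneurons, among its leading genes, and 453 of these nuclei were from the CGE samples.

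The members split into opposite classes by their CTX peaks. Summed over the 1314 members without a CTX peak, GABAergic-like nuclei held 4797 and 4447 CPM in the LGE samples and 4218 and 4928 CPM in the CGE samples. Progenitor-like nuclei held 754 to 871 CPM there, and glutamatergic-like nuclei 1072 to 1329 CPM. Over the 2293 members with peaks in both CTX samples the order was different, with 10362 and 9535 CPM (LGE) and 12099 and 7906 CPM (CGE) in glutamatergic-like nuclei, 3566 to 5509 CPM in progenitor-like nuclei and 2504 to 2974 CPM in GABAergic-like nuclei. The ranges of these 3 classes did not overlap in either set, but those of the other nuclei overlapped with them. Unnamed nuclei held 1294 to 1813 CPM without a CTX peak and 4087 to 5233 CPM with both. Endothelial-like nuclei held 930 to 1465 CPM and 2720 to 3585 CPM in the same order. Such sums were not made for regions other than members.

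A count region by region showed the same split. A region was counted for a class when its CPM was the highest of the 3 classes in each of the 4 samples, a rule set after these values were seen. GABAergic-like nuclei were highest at 954 members without a CTX peak (72.6%), 286 with 1 CTX peak (24.5%) and 112 with both (4.88%), against 18.9% of the 89330 regions with a peak in all 4 LGE and CGE samples. Glutamatergic-like nuclei were highest at 32 members without a CTX peak (2.44%), 231 with 1 (19.8%) and 906 with both (39.5%), against 12.8%. Progenitor-like nuclei were highest at 9.44%, 19.8% and 21.4% of the members in the same order, against 18.4%. Regions with a peak in all 6 eminence samples and in no CTX sample also leaned to GABAergic-like nuclei, which were highest at 55.7% of them, so that the lean is shared with regions open in MGE. The MEIS letters also varied with the class within each CTX group. Without a CTX peak they stood in 61.2% of members highest in GABAergic-like nuclei, 56.2% (18 of 32) in glutamatergic-like and 24.2% in progenitor-like nuclei. With both CTX peaks the shares were 46.4%, 37.3% (338 of 906) and 17.3% in the same order. Over all regions with a peak in the 4 LGE and CGE samples they were 33.7%, 28.3% and 19.9%. When CTX replicate 1 of E12.5 alone split the members, the share highest in GABAergic-like nuclei was 62.8% without its peak, and with CTX replicate 2 of E14.5 alone it was 54%. LGE replicate 2 gave the fewest glutamatergic-like nuclei, 267, against 504 to 742 in the other samples.

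**Figure D3:**
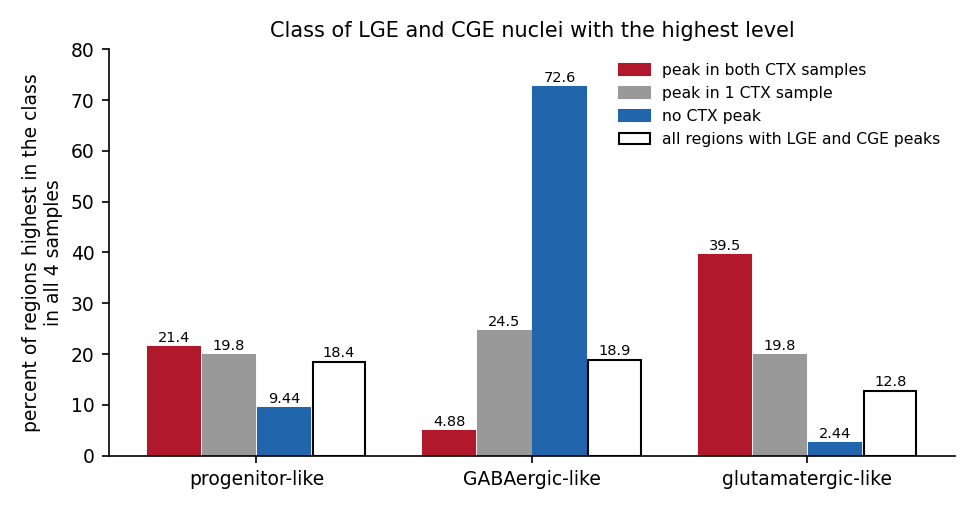
Percent of regions (vertical axis) at which progenitor-like, GABAergic-like or glutamatergic-like nuclei had the highest CPM in all 4 LGE and CGE samples, for members by CTX peaks and for all regions with a peak in those 4 samples (open bars). GABAergic-like nuclei were highest at 72.6% of members without a CTX peak and 4.88% of members with both.

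Some markers of glutamatergic neurons were lowest in MGE. Over the bodies of the 8 genes of that list the summed level was 344 and 349 CPM in MGE, 379 to 457 CPM in LGE and CGE, and 966 and 538 CPM in CTX. For 3 of the 8 genes both MGE values lay below all 4 LGE and CGE values, as was so for 10.6% of all genes, and none of the 8 was at 0. Neurod6, a bHLH factor of cortical projection neurons and 1 of these 3, held 1.1 and 2.72 CPM in MGE, 6.55 to 12.3 CPM in LGE and CGE, and 129 and 44.1 CPM in CTX. Other genes of the list did not follow it. Neurod2 held 21.7 and 11.4 CPM in MGE, against 14.7 to 20.1 CPM in LGE and CGE. Tbr1 held 81.8 and 100 CPM in MGE, against 78.2 to 111 CPM, and Bhlhe22 54.8 and 55.9 CPM, against 54.3 to 59.5 CPM. The sums of the GABAergic list were 2747 and 2448 CPM in MGE and 1218 to 1992 CPM in LGE and CGE, with all 8 of its genes above every LGE and CGE value, against 6.9% of all genes, where neighbouring Dlx genes share peaks. The part of the share of glutamatergic-like nuclei in the pattern of the members was not tested, and in these sums fewer nuclei of a type and fewer counts per nucleus cannot be told apart.

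The class difference was then tested on counts summed by sample and class, with the sample as a block, by edgeR's quasi-likelihood test with Benjamini-Hochberg adjustment over 87512 regions. Of the 4775 members, 4009 passed the filter on low counts and 766 did not. GABAergic-like nuclei were higher at 1777 members and progenitor-like nuclei at 1384, where 29.1% and 31.6% of all regions were called in these directions. Without a CTX peak, 985 of 1199 tested members (82.2%) were higher in GABAergic-like nuclei and 143 were higher in progenitor-like nuclei, with a median log2 fold of 3.20 (quartiles 1.97 and 3.87). With both CTX peaks, 333 of 1838 tested members (18.1%) were higher in GABAergic-like nuclei and 922 (50.2%) in progenitor-like nuclei, with a median of -0.87. The median over all regions was -0.03. A region could pass the filter on its counts in a single class, so the shares of tested members lean to regions high in GABAergic-like or progenitor-like nuclei. With no filter, 3459 of the 4775 members (72.4%) and 60.4% of all regions were called. Of the members, 1982 were then higher in GABAergic-like nuclei (41.5%, against 29.1% of all regions). Progenitor-like nuclei were higher at 1477 (30.9%, against 31.3%). The counts without the filter were not split by CTX peaks.

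Single members showed how large the difference could be. The Bach2 member lay in an intron of Bach2, which encodes a transcriptional regulator, 36715 bp from its start site (chr4:32275122-32276207). It held 7.37 and 4.65 CPM in the LGE samples and 5.81 and 6.07 CPM in the CGE samples. In GABAergic-like nuclei its level was 19.8, 13.8, 17.1 and 16.6 CPM in LGE replicates 1 and 2 and CGE replicates 1 and 2, against 0.71, 0.443, 0.421 and 0.851 CPM in progenitor-like nuclei (log2 fold 4.6, SE 0.21, adjusted p = 5.92e-09 by edgeR). The 3 other members without a CTX peak that ranked highest by mean CPM lay in introns of Abca13 and Lrmda and nearest to Agbl1, at 6.3 ± 0.951, 6.2 ± 0.62 and 6.03 ± 1.94 CPM (SD, n = 4). All of them were higher in GABAergic-like nuclei, by log2 folds of 4.1, 3.9 and 4.56. The 5 largest folds toward GABAergic-like nuclei included 6.33, 5.71 and 5.66 at intergenic members nearest to Nsun3, Cmpk2 and Tyrp1. These lay 893049, 193329 and 1599765 bp from the nearest start site. The others were 5.66 in an intron of Rnf165 and 5.65 in an intron of Nkain2, and all 5 members lacked a CTX peak. Progenitor-like nuclei had 0 CPM in at least 1 sample at each of these 5, so that the size of these folds depends on the prior count. The Nkain2 member lay 258416 bp from the nearest MGE peak.

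Of the members with peaks in both CTX samples, the 4 with the highest mean CPM lay between 13 and 13.4 CPM. Among them was a member in an intron of Schip1 and Iqschfp, with 20.3 and 15.5 CPM in LGE and 12 and 5.83 CPM in CGE (mean 13.4 ± 6.1, SD, n = 4). It was higher in progenitor-like nuclei (log2 fold -1.27, SE 0.13, adjusted p = 2.86e-06). A member in an intron of Myh15 held 10.7 to 16.2 CPM in the LGE and CGE samples, with a mean of 13.4 ± 2.36 CPM (SD, n = 4), and 41.8 and 27.1 CPM in CTX. A member 216721 bp from the start of Lmo4, a LIM-only cofactor of neuronal development, held 13.3 and 11.2 CPM in LGE and 14.8 and 13.3 CPM in CGE, with 16 to 28 CPM in progenitor-like, 2.68 to 3.88 CPM in GABAergic-like and 7.22 to 23.7 CPM in glutamatergic-like nuclei. The fourth lay in an intron of Grid1, a glutamate receptor family gene, with 19.5 and 16.4 CPM in LGE and 9.81 and 6.16 CPM in CGE. Among the 5 largest folds toward progenitor-like nuclei were -4.56, -4.31 and -4.03 at members nearest to Gm4791, Ttc17 and E2f3, and -4.2 in an intron of Cdhr1. These members held 0.612 to 1.05 CPM. The Gm4791 member had a peak in 1 CTX sample only, and the Cdhr1 member had no CTX peak. GABAergic-like nuclei had 0 CPM in at least 1 sample at the Gm4791, Cdhr1 and E2f3 members, so that the size of these folds depends on the prior count. Of the members with 1 CTX peak, the 4 highest included those at Sohlh1 (7.11 ± 1.95 CPM, SD, n = 4), Barhl2 (5.88 ± 4.55) and Impg1 (5.84 ± 2.2). Among these the Barhl2 member was highest in glutamatergic-like nuclei (8 to 25.9 CPM).

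**Figure D4:**
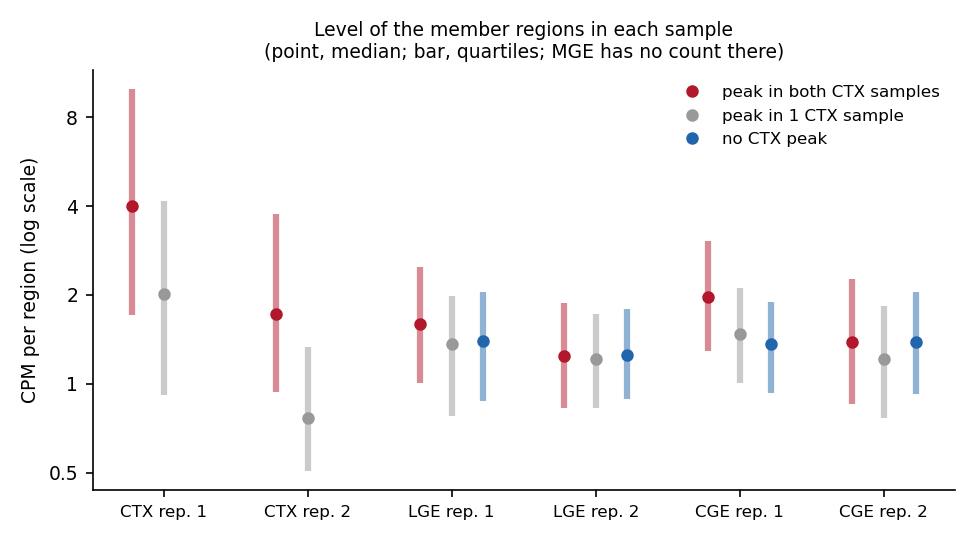
Level of the members in each sample in CPM (vertical axis, log scale), with the median as a point and the quartiles as a bar, by CTX peaks. MGE has no counts there. In CTX replicate 1 the members with both CTX peaks have a median of 4.01 CPM, against 1.24 to 1.97 CPM in LGE and CGE, and in CTX replicate 2 a median of 1.72 CPM, within that range.

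The nearest genes were grouped by lists of known roles. The 4775 members had 2920 different nearest genes, which is 14.1% of 20698 protein-coding genes, and 437 genes were nearest to 3 or more members. Of the 89330 regions with a peak in all 4 LGE and CGE samples, 5.35% were members, which is the background for each list. For genes of axon guidance and migration, 78 of 807 such regions were members (9.67%), and 19 of the 22 genes were nearest to at least 1. For Hedgehog genes it was 19 of 146 (13%), for retinoid genes 8 of 86 (9.3%) and for pallial genes 11 of 170 (6.47%). For striatal and LGE regulators it was 29 of 485 (5.98%), for CGE genes 9 of 192 (4.69%), for MGE genes 4 of 210 (1.9%) and for genes of all eminences 1 of 59 (1.69%). The nearest start site need not belong to the gene a region acts on, and genes in wide intergenic stretches are nearest to more regions of any kind.

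The genes nearest to most members had 10 to 14 each. Ntm, a cell adhesion gene of the IgLON family, had 14, Gpc5, a heparan sulfate proteoglycan, and Lsamp, another IgLON gene, had 11 each, and Dab1, an adaptor of reelin signalling, had 10. Lingo2, Meis2, Pcdh7 and Robo2 also had 10 each. Members made up 34.5% of the regions nearest to Pcdh7, 31.2% of those nearest to Lingo2, 23.4% of those nearest to Gpc5 and 21.7% of those nearest to Meis2. The MEIS letters, which 39% of all members held, stood in 9 of the 11 members nearest to Gpc5, 7 of 10 for Pcdh7, 6 of 10 for Robo2, 6 of 11 for Lsamp, 6 of 14 for Ntm, 4 of 10 for Dab1 and for Meis2 and 2 of 10 for Lingo2. GABAergic-like nuclei, which were highest in all 4 samples at 28.3% of all members, were so at 7 members each of Gpc5 and Pcdh7, 6 of Meis2, 5 each of Lingo2 and Lsamp, 4 of Ntm, 3 of Dab1 and 2 of Robo2, and progenitor-like nuclei (17.7% of all members) at 5 of Dab1 and at 0 to 2 of each of the other genes.

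Meis2, which encodes a TALE homeodomain factor of LGE progenitors and striatal neurons, was the list gene of LGE with most members. Of its 10 members, 7 lay in introns of the gene, 1 overlapped its exon sequence and 2 were intergenic, 14880 to 254334 bp from the nearest start site. Only 1 had peaks in both CTX samples. GABAergic-like nuclei were highest in all 4 samples at 6 of them and progenitor-like or glutamatergic-like nuclei at none. Of 9 tested 5 were called, each higher in GABAergic-like nuclei, as were 44.3% of all tested members and 29.1% of all regions. The strongest member (chr2:115991802-115993106) held 1.55 and 2.71 CPM in LGE and 1.94 and 2.71 CPM in CGE, and was higher in GABAergic-like nuclei (log2 fold 1.86, SE 0.29, adjusted p = 0.000123 by edgeR). The largest fold, 2.62 (SE 0.36, adjusted p = 4.28e-05), was at the intergenic member chr2:116128606-116129064. Both of these members held the MEIS letters, which 4 of the 10 held in all.

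Among the other striatal and LGE regulators, Isl1, a LIM homeodomain factor of striatal cholinergic and direct pathway neurons, had 2 members. The stronger lay 380452 bp from its start and held 4.33 and 3.72 CPM in LGE and 2.98 and 2.41 CPM in CGE. Its level was 6.22 to 11.6 CPM in GABAergic-like nuclei and 0.756 to 1.5 CPM in progenitor-like nuclei (log2 fold 2.93, SE 0.27, adjusted p = 1.58e-06). The member nearest to Rarb, a retinoic acid receptor of the striatum, lay 407036 bp from its start. It held 4.45 and 1.87 CPM in LGE and 3.22 and 3.03 CPM in CGE. The LGE samples thus stood on either side of both CGE samples. The level of the Rarb member was 6.14 to 13.4 CPM in GABAergic-like nuclei and 0.1 to 0.361 CPM in progenitor-like nuclei (log2 fold 5.53, SE 0.33, adjusted p = 4.26e-08 by edgeR). Bcl11b, a zinc finger factor of striatal and subcerebral projection neurons, had 2 members, both with peaks in both CTX samples, and its stronger one was higher in progenitor-like than GABAergic-like nuclei (log2 fold -2.13, adjusted p = 3.25e-05). Over the list, 14 of 24 tested members were higher in GABAergic-like nuclei and 3 in progenitor-like nuclei, with a median log2 fold of 0.95. Over all members tested these shares were 44.3% and 34.5%, with a median of 0.44. Over tested members with both CTX peaks they were 18.1% and 50.2%, with a median of -0.87. For the lists below the second values are the closer background for pallial and Hedgehog genes and for the Dlx2 member, and the first values elsewhere.

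Pallial and Hedgehog genes had mostly members with peaks in both CTX samples, which 2293 of all 4775 members had. All 11 members nearest to pallial genes had peaks in both CTX samples, among them 3 of Fezf2, 2 each of Pax6 and Eomes and 1 each of Emx2, Lhx2, Neurod1 and Neurod6. Of 9 tested, 2 were higher in GABAergic-like and 2 in progenitor-like nuclei, with a median log2 fold of -0.15. The strongest Eomes member, 150803 bp from the start of this T-box gene of intermediate progenitors, held 2.7 and 2.58 CPM in LGE, 5.71 and 6.61 CPM in CGE and 19.5 and 4.91 CPM in CTX. Its level was 6.15 to 25.7 CPM in glutamatergic-like nuclei and 1.69 to 5.09 CPM in GABAergic-like nuclei. Of the 19 Hedgehog members, 6 were nearest to Gli2 and 6 to Gli3, which encode effectors of Sonic hedgehog, 3 each to the co-receptor genes Boc and Gas1, and 1 to Hhip, an inhibitor. In 14 of the 19 both CTX samples had a peak. Of 15 tested, 11 were higher in progenitor-like nuclei and 1 in GABAergic-like nuclei, with a median log2 fold of -1.16. Of all 19, glutamatergic-like nuclei were highest in all 4 samples at 6, progenitor-like nuclei at 4 and GABAergic-like nuclei at 1. The strongest lay over Boc exon sequence, held 5.18 and 4.09 CPM in LGE and 2.6 and 2.22 CPM in CGE, and was higher in progenitor-like nuclei than GABAergic-like nuclei (log2 fold -1.3, SE 0.24, adjusted p = 0.000529). Glutamatergic-like nuclei held 9.59 and 8.25 CPM there in LGE and 4.4 and 2.75 CPM in CGE, against 5.25 and 4.38 CPM and 4.51 and 3.15 CPM in progenitor-like nuclei.

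Guidance and migration genes held members of each kind. Robo2, a receptor for Slit ligands, had 10 members, and the strongest, without a CTX peak, lay in its intron 7831 bp from a start site. It held 5.51 and 3.52 CPM in LGE and 5.59 and 5.74 CPM in CGE, with 11.8 to 17.5 CPM in GABAergic-like nuclei and 0.361 to 0.601 CPM in progenitor-like nuclei (log2 fold 4.76, SE 0.2, adjusted p = 3.96e-09). The Erbb4 member, near the gene of the neuregulin receptor of migrating interneurons, had no CTX peak, held 6.06 and 4.22 CPM in LGE and 4.27 and 4.32 CPM in CGE, and was higher in GABAergic-like nuclei (log2 fold 3.95, SE 0.27, adjusted p = 1.31e-07). All 6 members nearest to Nrg1, the gene of a ligand of ERBB4, had peaks in both CTX samples, and the strongest was higher in progenitor-like than GABAergic-like nuclei (log2 fold -2.2, adjusted p = 6.93e-06), with 4.54 to 6.25 CPM in progenitor-like and 4.35 to 6.99 CPM in glutamatergic-like nuclei. The strongest Nrp2 member, near a semaphorin receptor gene, held 6.88 and 5.81 CPM in LGE and 8.98 and 7.16 CPM in CGE, with 8.37 to 21.3 CPM in progenitor-like and 0.606 to 2.73 CPM in GABAergic-like nuclei (log2 fold -3.35, SE 0.34, adjusted p = 3.44e-06). A further 4 members with both CTX peaks were highest in glutamatergic-like nuclei. They lay nearest to Unc5d (21.7 to 33.8 CPM), a netrin receptor gene, and Epha5 (13.3 to 23.2 CPM), an ephrin receptor gene. The others lay nearest to Nrp1 (12.6 to 19.3 CPM) and Sema3c (10.9 to 18.5 CPM), a secreted semaphorin gene. In this order the 4 members lay 617254, 436636, 422183 and 22429 bp from the nearest start site. The Robo1 member, 534560 bp from the nearest start site, was close to even. It held 4.33 to 5.35 CPM in progenitor-like, 4.83 to 6.89 CPM in GABAergic-like and 2.95 to 4.64 CPM in glutamatergic-like nuclei. Over the list 40 of 72 tested members were higher in GABAergic-like nuclei and 19 in progenitor-like nuclei, where 44.3% and 34.5% of all tested members were so. Of the 78 members of the list, 40 had peaks in both CTX samples, 17 in 1 and 21 in none. Of the members of CGE genes, 4 of 7 tested were higher in GABAergic-like nuclei and 3 in progenitor-like nuclei, and of retinoid genes 5 and 1 of 8. The 3 tested members of MGE genes and the 1 tested member of genes of all eminences, nearest to Dlx2, were higher in progenitor-like nuclei.

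**Figure D5:**
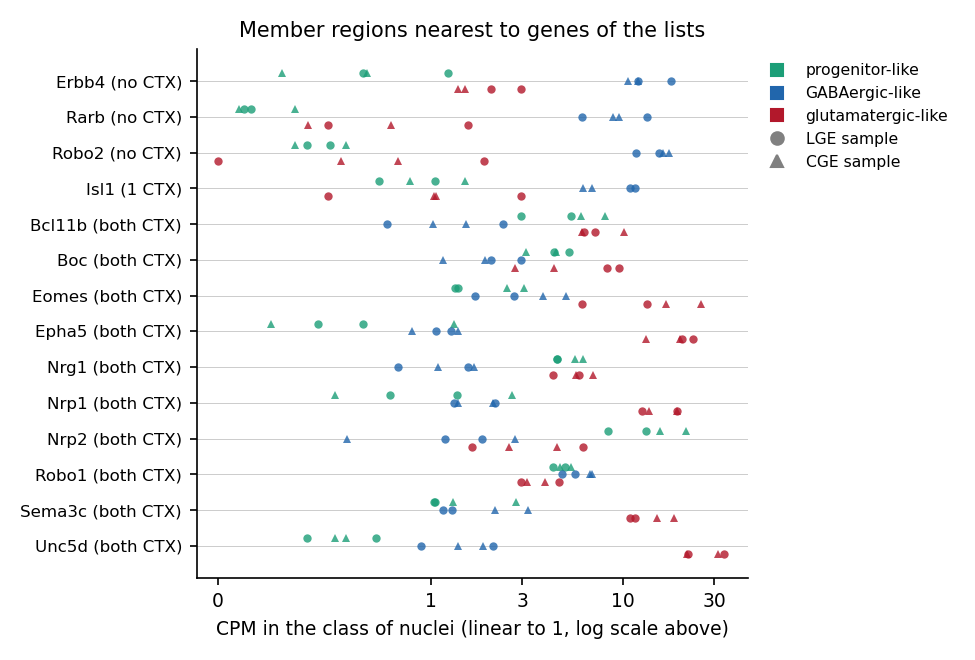
CPM of the 14 members named for the lists (horizontal axis, linear to 1 and log above) in each class of nuclei, 1 mark a sample, LGE as circles and CGE as triangles. The Erbb4, Rarb, Robo2 and Isl1 members are highest in GABAergic-like nuclei in all 4 samples, while the Unc5d, Epha5, Nrp1 and Sema3c members are highest in glutamatergic-like nuclei.

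LGE and CGE themselves were compared over the members, since the rule asks for a peak in each and sets no direction between them. Over the 89323 regions tested no region was called by edgeR's quasi-likelihood test (0%), and so none of the 4771 members tested. At an unadjusted p under 0.05 there were 724 members (15.2%) against 16.4% of all regions, and DESeq2 called 262 members (5.49%, against 5.68% of all regions). The median log2 difference of LGE from CGE was -0.10 over members (quartiles -0.63 and 0.43), and with an offset for the covered length it turned to 0.435, where that over all regions was 0.295. DESeq2 called 87 members higher (1.82%, against 2.45% of all regions) and 175 lower in LGE (3.67%, against 3.23%), and the fit with the offset 40 (0.838%, against 2.86%) and 3 (0.0629%, against 0.0784%). The members with the smallest p were nearest to Lrrc40, Sphkap and Csnka2ip. The first, in an intron of Lrrc7, held 6.47 and 5.87 CPM in LGE and 1.27 and 1.3 CPM in CGE (log2 difference 2.33, SE 0.21). The Sphkap member held 0.0867 and 0.0682 CPM in LGE and 2.41 and 3.11 CPM in CGE. The Csnka2ip member had 0 counts in both LGE samples and 165 and 181 counts in CGE. At the last 2 the LGE peaks covered 32 and 98 bp, and 1 bp in each sample, of 816 and 1120 bp. Each had an adjusted p of 0.1. The samples numbered 1 and 2 differed in a technical measure, since 9.54% to 10.4% of the count entries were odd in every replicate 1 and 5.17% to 5.85% in every replicate 2. With the replicate number as a block, 284 members (5.95%) and 9.55% of all regions were called, among them the 3 named here, with adjusted p of 0.0116 to 0.0151 by edgeR. The count of called members was 132 without LGE replicate 1 (2.76%, against 2.24% of all regions) and 288 without LGE replicate 2 (6.03%, against 3.69%).

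CTX was compared with the mean of LGE and CGE over the 2293 members with peaks in all 6 of these samples. CTX was higher at 238 members (10.4%, against 4.28% of the 75097 regions tested) and lower at 18 (0.785%, against 2.49%), by edgeR with Benjamini-Hochberg adjustment. The median log2 fold was 1.19 over members and 0.02 over all regions. With an offset for the length covered by each sample's peaks it was 0.409 over members and -0.078 over all regions. With the offset 99 members were called higher (4.32%, against 1.16% of all regions) and 2 lower (0.0872%, against 1.07%). Without CTX replicate 1 the median over members was 0.392, with 445 called higher (19.4%, against 12.9% of all regions) and 157 lower (6.85%, against 12.6%). The 5 largest folds above 0 included 6.74 and 5.64 in introns of Ptpn13 and Epb41l2. The others were 5.88, 5.71 and 5.54 at members nearest to A730009L09Rik, Csnka2ip and Tbl1xr1, the last 518485 bp from its start site. At all 5 the LGE peaks covered 1 to 192 bp and the CTX peaks 892 to 3240 bp. The LGE samples held 0 to 3 counts at the Ptpn13, A730009L09Rik and Csnka2ip members, so that the size of these folds depends on the prior count. The 5 largest below 0 included -5.71, -3.99 and -2.65 in introns of Kif6, Gpc5 and Cdk14, the last nearest to Fzd1. The others were -2.52 and -2.46 at members nearest to Chst1 and Lgalsl. At the Kif6 member the CTX peaks covered 5 and 66 bp and held 0 and 4 counts, so that this fold also depends on the prior count. With the covered-length offset the Kif6, Gpc5, Cdk14 and Lgalsl members lost their call, with folds of -1.63 to -0.86. Of the 5 above 0 those of Ptpn13, Csnka2ip and Tbl1xr1 lost it there, with folds of 2.56, 5.08 and 2.43. With the replicate number as a block the Tbl1xr1 member had a fold of 5.05 and an adjusted p of 0.055 by edgeR. Of the members named above, those of Nrp1 (log2 fold 2.95, SE 0.35, adjusted p = 0.0219), Boc (1.88, SE 0.35, adjusted p = 0.0415) and Myh15 (1.41, SE 0.22, adjusted p = 0.032) were higher in CTX. The call count was 1104 without CTX replicate 2 of E14.5 (48.1%, against 28.1% of all regions), 602 without CTX replicate 1 (26.3%, against 25.5%), and 0 without any 1 of the LGE or CGE samples, where the median over members was 1.14 to 1.30.

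MGE could be measured at the promoters of the nearest genes, which are other peaks. A promoter's count is the sum of the sample's own whole peaks within 1000 bp of a start site, and an absent peak adds no counts. A low value may therefore also come from where peaks were called, which was not tested. Of 2530 nearest genes tested, 2 were called between MGE and the mean of LGE and CGE, both lower in MGE, where 0.0131% of the 15266 genes tested were lower and 0.0524% higher. The promoter of Tmc5, a gene of the transmembrane channel-like family, held 10.9 and 7.3 CPM in MGE, 175 and 167 CPM in LGE, 177 and 144 CPM in CGE and 154 and 194 CPM in CTX (log2 fold -4.16, SE 0.23, adjusted p = 0.000854 by edgeR). The MGE samples lay far below all others. With peaks within 500 bp of a start site the fold was -3.70 with an adjusted p of 0.76. The promoter of Bmpr1b, a bone morphogenetic protein receptor with 3 members nearest to it, held 51.3 and 62.5 CPM in MGE, 218 and 203 CPM in LGE, 194 and 148 CPM in CGE and 142 and 153 CPM in CTX (log2 fold -1.71, SE 0.15, adjusted p = 0.0161), and its adjusted p was 0.229 without MGE replicate 1 (fold -1.57) and 0.0588 without MGE replicate 2 (fold -1.87). DESeq2 called 73 nearest genes, 40 lower in MGE (1.58%, against 0.596% of all genes) and 33 higher (1.3%, against 1.15%).

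At an unadjusted p under 0.05, promoters were lower in MGE for 120 of the 2530 nearest genes (4.74%) and for 2.07% of all genes tested, and higher for 3.04% and 3.62%. In both directions together there were 197 (7.79%, against 5.69%), and there were 68 without MGE replicate 1 (2.64%, against 1.64%) and 327 without MGE replicate 2 (12.7%, against 13.1%). Of the 394 genes nearest to 3 or more members, 35 (8.88%) were lower at that level and 10 (2.54%) higher, and the median log2 fold was -0.12, against -0.06 over all nearest genes. The Meis2 promoters held 259 and 238 CPM in MGE, 331 and 405 CPM in LGE, 306 and 337 CPM in CGE (log2 fold -0.45, SE 0.17, adjusted p = 0.808).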

How the data were processed

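Per the labels, nuclei of 4 forebrain regions, 2 samples each, were assayed by single-nucleus ATAC-seq, and the submitters' processing notes name Cell Ranger ATAC 1.2.0 and the build GRCm38 (mm10). The authors deposited raw counts per peak and nucleus, with peaks called separately in each sample. Only 5.17% to 10.4% of the entries were odd, which is what a count of both fragment ends leaves, so that the counts overstate the number of independent fragments. All deposited barcodes were used, with no doublets removed by a caller. The motif counts were not used here.

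Members and gene lists were chosen with earlier results of these data known. Peaks of the 8 samples on 19 autosomes were merged, counts were summed over nuclei, and regions were annotated with 20722 protein-coding genes of GENCODE M21. Counts per 1000000 (CPM) are relative to a sample's counts in the regions with a peak in all 8 samples (within the class, for classes of nuclei), in all gene bodies or in all promoters tested. Tests used edgeR 4.0.16 (TMM scaling, filterByExpr, calls at an adjusted p of 0.05 or less) and, as an alternative, DESeq2 1.42.0, in R 4.3.3. The scripts were tested on simulated data. LGE and CGE nuclei were clustered with 30 components of latent semantic indexing, 20 neighbours and Leiden clustering (leidenalg 0.10.2) at resolution 0.5, and 1 as an alternative. A cluster needed 3 markers raised by a log2 fold of 0.5 for a name, and a cluster of very high counts per nucleus stayed unnamed.

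Named were the 4 members with the highest mean CPM in each CTX class, the 5 called members with the largest folds in each direction of a test or the 3 with the smallest p, the highest member of up to 14 list genes, the genes nearest to most members (8 at 10 or more, since the fifth place was tied) and the 5 called nearest genes with the smallest p in each direction. Letters were searched in the central 300 bp. Results for some items that these rules name are not reported here.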

Additional observations from a re-analysis of the deposited data

How the results depend on the processing

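The number of members was 4057 with at least 100 bp covered in each LGE and CGE sample, 4309 over 1000 bp from an MGE peak, and 5011 to 14342 when 1 LGE, CGE or MGE sample was left out of the rule, the highest without MGE replicate 2 and the next, 9464, without LGE replicate 1. Members called between LGE and CGE were 0 in the reported fit and without the filter, 262 with DESeq2 (5.49%, against 5.68% of all regions), 43 with the covered-length offset (0.901%, against 2.94%) and 0 to 288 with 1 sample left out. Members called between CTX and the mean of LGE and CGE were 256 (11.2%, against 6.76%), 810 with DESeq2 (35.3%, against 19.9%), 101 with the offset (4.4%, against 2.23%) and 0 to 1104 with 1 sample left out. Nearest genes called between MGE and the mean of LGE and CGE were 2, 73 with DESeq2 (2.89%, against 1.75% of all genes) and 1 to 9 with 1 sample left out, the highest without LGE replicate 2 and 5 without either CTX sample. The cause of these changes was not tested. With a replicate block, 284 members (5.95%, against 9.55% of all regions) were called between LGE and CGE. Among them were those of Lrrc40, Sphkap and Csnka2ip (adjusted p = 0.0116, 0.0135 and 0.0151 by edgeR). DESeq2 also called these members (adjusted p = 1.19e-09, 1.68e-11 and 1.02e-07), and the offset fit called only that of Lrrc40 among them (6.5e-05 by edgeR). The block fits called 223 members between CTX and the others (9.73%, against 5.58%) and 3 nearest genes (0.119%, against 0.0459% of all genes). The labels give no meaning to the replicate numbers, so the reported fits have no block, although samples with the same number deviated together between LGE and CGE (correlation 0.38 over regions and 0.30 over members), with 0.25 between CTX and LGE, 0.18 between CTX and CGE, 0.09 between MGE and LGE and -0.04 between MGE and CGE. Members called between GABAergic-like and progenitor-like nuclei were 3161 (78.8%, against 60.6% of all regions). With DESeq2, no filter or clustering at resolution 1 they were 3005 to 3459 (72.4% to 78%, against 56.1% to 61.1%). With 1 sample left out they were 3031 to 3090 (74% to 75.5%, against 54.1% to 56.2%). Of the named members' values in this test 296 kept their side of the threshold under the alternatives and 3 passed it only there, while in the CTX test 51 kept their call and 49 lost it, and no named value in any of the tests changed direction past the threshold. The splits by 1 CTX sample, by distance to an MGE peak and by covered length were added after the data were seen, and the share of members without a CTX peak that was highest in GABAergic-like nuclei was 54% to 77.5% under them. The counts at a member, with a median of 67 in its lowest LGE or CGE sample, limit the precision of single members.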
